A study of Homo sapiens with 12 samples.

Results

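PARP14 and 7 related genes of ADP-ribose signalling were followed over the 12 arrays. The 8 genes were PARP14, its neighbours PARP9, DTX3L and PARP15 on chromosome band 3q21, the mono-ADP-ribosyl transferases PARP10, PARP12 and PARP8, and PARP1. They were chosen by name, and their 14 probes were those whose gene name on the array equals one of these names, among 34423 gene names in all. PARP14 had been selected on the mock-treated arrays, where it stood among the probes with lower levels in TET1 knockdown clones. Its values on those arrays are therefore given as a description, without a test. The other 7 genes were added for their position or their family. DTX3L is not a PARP, and of the PARPs listed PARP14, PARP9 and PARP15 are the ones known to carry macrodomains.

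The cells were clones of Colo320DM, a colorectal cancer cell line. The study asked how loss of TET1, an enzyme that oxidizes 5-methylcytosine, relates to DNA methylation in colorectal cancer, and treated the clones with the DNA methyltransferase inhibitor 5-aza-2'-deoxycytidine (5-aza-dC). The plasmid of the 3 control clones was pcDNA6.2-GW/EmGFP-miR-neg. The 3 knockdown clones carried a TET1 knockdown vector, which expresses an artificial microRNA against TET1 from the same backbone. All 6 were stable transfectants grown from GFP-positive colonies under G418 at 1.0 mg/ml, so each is 1 clone and clonal differences cannot be told apart from the effect of the vector. Mock treatment and 1 µM 5-aza-dC for 72 h were compared in each clone, which gave 4 groups of 3 arrays. Of the 2 artificial microRNAs, clones 1 and 2 carried one and clone 3 the other, if the clone numbers of the arrays are those of the clones as first described.

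ADP-ribosylation is the transfer of ADP-ribose from NAD+ onto proteins or nucleic acids. Most PARPs add a single ADP-ribose, whereas PARP1 builds chains at DNA breaks. Macrodomains bind ADP-ribose, which lets PARP14, PARP9 and PARP15 read the mark as well as, in some cases, write it. PARP14 is known as a co-activator of STAT6 in the interleukin-4 pathway. PARP9 forms a complex with the ubiquitin ligase DTX3L, and PARP14, PARP9, DTX3L, PARP10 and PARP12 are known interferon-stimulated genes.

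The promoters were searched for the interferon-stimulated response element (ISRE), a site bound by transcription factors of the interferon response, IRF9 among them. Windows of 300 bases, from 250 bases before to 50 bases after the transcription start, were taken from RefSeq on GRCh38.p14 and matched 7 of the 8 genes. The core searched was GAAANNGAAA on either strand. It was present in 3.57% of all 35116 windows, in which genes with several starts occur more than once. A core was found in the windows of PARP14, DTX3L and PARP12, and in 1 of the 2 windows of PARP9. It was not found in the 2 windows of PARP15, the 3 windows of PARP8 or the window of PARP1. These are letter matches in a short window, and binding was not measured. The windows of PARP14 (chr3:122680589-122680888, plus strand), DTX3L (chr3:122564088-122564387, plus strand) and PARP12 (chr7:140062902-140063201, minus strand) are shown 5′ to 3′ on the strand of the gene, to place the core beside the start. Capitals mark the ISRE core and, in PARP14, also the STAT site TTCNNNGAA.
PARP14: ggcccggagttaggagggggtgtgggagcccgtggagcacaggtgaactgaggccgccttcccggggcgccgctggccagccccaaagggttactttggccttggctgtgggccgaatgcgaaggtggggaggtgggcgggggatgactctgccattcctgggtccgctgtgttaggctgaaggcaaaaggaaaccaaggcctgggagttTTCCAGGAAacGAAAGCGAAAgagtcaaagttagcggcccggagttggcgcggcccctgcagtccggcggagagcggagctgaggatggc
DTX3L: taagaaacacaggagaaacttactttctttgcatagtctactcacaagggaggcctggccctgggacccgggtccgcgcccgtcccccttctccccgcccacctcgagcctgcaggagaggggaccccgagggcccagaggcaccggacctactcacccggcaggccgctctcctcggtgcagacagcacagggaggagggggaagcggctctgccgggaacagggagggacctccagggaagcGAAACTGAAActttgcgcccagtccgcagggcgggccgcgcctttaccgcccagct
PARP12: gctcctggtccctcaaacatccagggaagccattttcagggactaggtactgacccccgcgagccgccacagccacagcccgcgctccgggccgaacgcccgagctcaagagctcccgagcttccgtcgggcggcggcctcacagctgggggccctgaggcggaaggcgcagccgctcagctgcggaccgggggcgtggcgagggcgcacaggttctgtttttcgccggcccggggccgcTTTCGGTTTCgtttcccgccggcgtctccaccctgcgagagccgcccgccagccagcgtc

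In PARP14 the ISRE core began 29 bases before the start. A STAT site, a palindrome present in 7.66% of all windows, lay just upstream and began 40 bases before the start, without overlap with the core. In PARP12 the core began 10 bases before the start, and in DTX3L 6 bases before it. PARP9 and DTX3L are transcribed in opposite directions from starts 38 bases apart, so that their windows share 137 bases, and the core of PARP9 is the DTX3L core read on the other strand. PARP15 had no ISRE core but a STAT site that began 51 bases before one of its starts. The number of CpG dinucleotides, the target of DNA methylation, was 19 in the PARP14 window, 20 in that of DTX3L, 29 in that of PARP9 with the core and 35 in that of PARP12, against a median of 14 over all windows. The windows without a core held 33 in PARP1, 2, 17 and 43 in PARP8, 11 and 3 in PARP15 and 6 in PARP9.

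Levels are given as log2 signal relative to the 75th percentile of the array, so 0 is the level of that percentile and negative values lie below it. Each gene is represented by its probe with the highest mean, and levels of different probes are not set against each other. A probe is called well above background where the scanner software marked it so. TET1 itself was lower in knockdown clones on all 3 of its probes after mock treatment, by 0.93 to 1.35 on the log2 scale, although none passed the test (adjusted p = 0.242 to 0.395). On the TET1 probe with the highest signal, the 3 mock-treated knockdown clones read 3.59, 3.51 and 3.57 and the 3 control clones 4.56, 4.23 and 4.67. After 5-aza-dC the knockdown clones read 2.98, 4.31 and 3.35 and the control clones 4.06, 4.42 and 4.16, so treated knockdown clone 2 lay within the range of the control clones on this probe. On the other two probes it lay below them. The 12 arrays were on 2 slides, and treated knockdown clone 2 shared its slide with the 3 treated control clones, whereas treated knockdown clones 1 and 3 were on the other slide. The calls between treated clones were therefore also counted without that array, for the members and the gene lists. Of 9 markers of the labelled cell type, CDX2, KRT18, KRT8 and KRT20 were well above background on all 12 arrays and CDH1 on none. CDH17 was so on 11 arrays, EPCAM on 10, KRT19 on 6 and VIL1 on 1. Of 6 leukocyte markers, PTPRC, CD79A and CD14 were also well above background on all 12 arrays, and of 5 stromal and endothelial markers COL1A1 was on all 12 and COL1A2 and PECAM1 on none. Their part in the results was not tested.

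**Figure D1:**
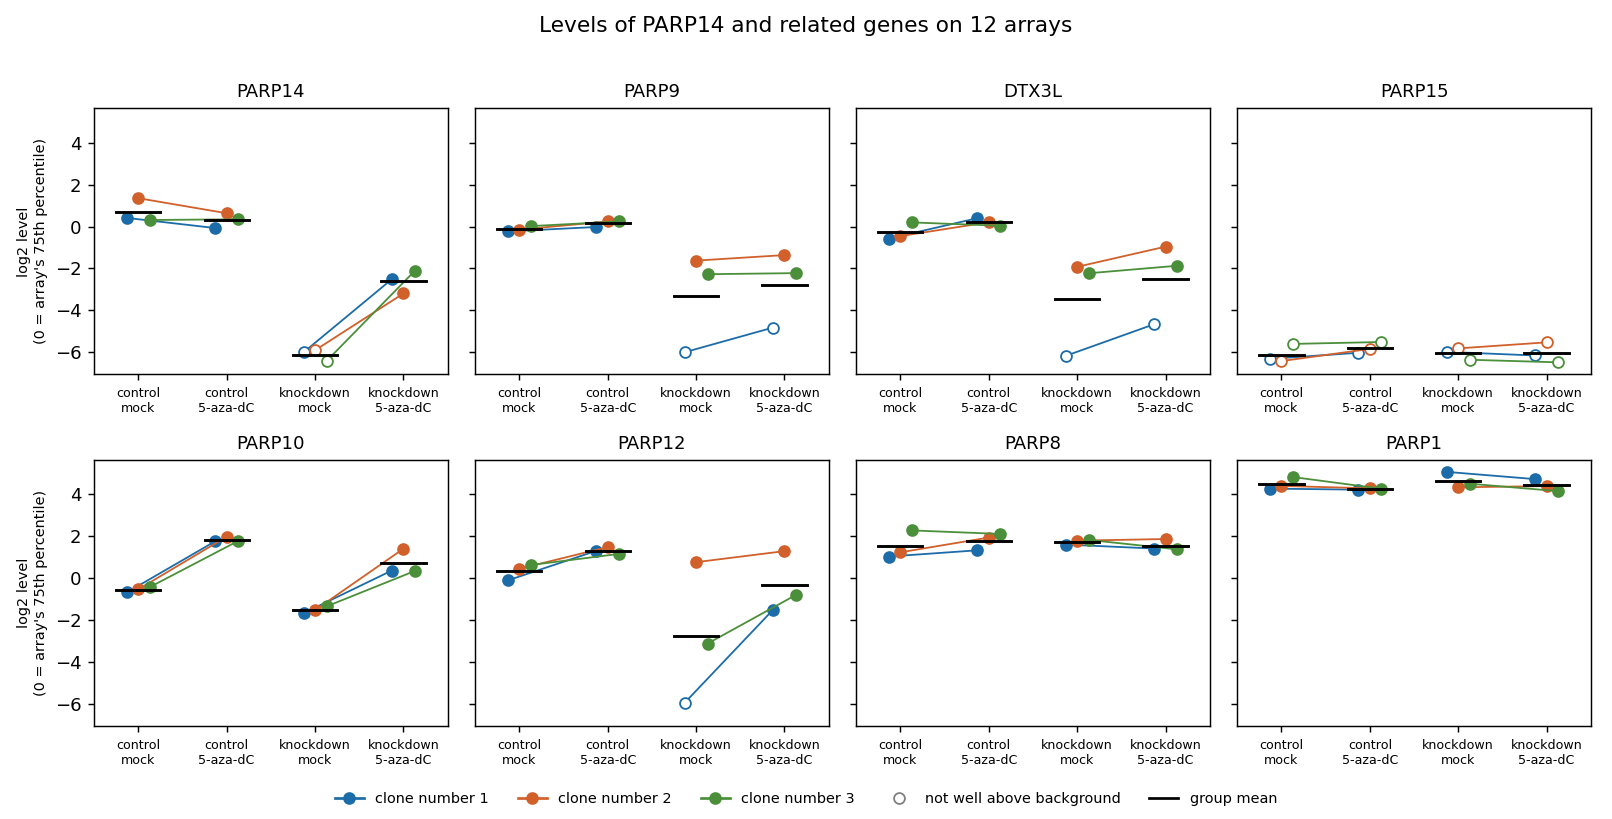
Log2 level of each gene's probe on the 12 arrays, relative to the array's 75th percentile, in control and TET1 knockdown clones after mock treatment and after 5-aza-dC. Points are arrays, lines join both arrays of a clone, open points were not well above background and black bars are means of 3 arrays. PARP14 lay at −6.42 to −5.91 in mock-treated knockdown clones and at −3.20 to −2.11 after 5-aza-dC, against −0.07 to 1.36 in control clones.

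PARP14 was detected on every control array and on no mock-treated knockdown array. Its probe lies at chr3:122437444-122437503 of hg19, on the plus strand. The mock-treated control clones read 0.41, 1.36 and 0.31 (mean 0.70 ± 0.58, SD, n = 3). The mock-treated knockdown clones read −6.01, −5.91 and −6.42 (mean −6.11 ± 0.27, SD, n = 3), and none of them was well above background. The groups were therefore far apart, and the level was at least 24.6-fold lower in knockdown clones. The bound compares the control mean with the dimmest signals that still counted as above background, and holds for this processing only. With normexp background correction the fitted difference of −6.81 became −3.27, under that bound in size. This is the contrast on which PARP14 was picked, and 0.137% of the 24750 probes tested there were called in either direction.

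After 5-aza-dC the PARP14 transcript became detectable in all 3 knockdown clones and read lower there than in the control clones. The treated knockdown clones read −2.51, −3.20 and −2.11 (mean −2.60 ± 0.55, SD, n = 3). The treated control clones read −0.07, 0.64 and 0.35 (mean 0.31 ± 0.36, SD, n = 3). All 3 knockdown values were thus under all 3 control values. These arrays were not those used to pick the gene, though they were of the same clones. The difference was −2.91 on the log2 scale (SE 0.34, 95% interval −3.73 to −2.10), that is 7.52-fold lower in knockdown clones, and −1.91 with normexp. It missed the threshold over all probes (limma, adjusted p = 0.0605), and the exact permutation test gave p = 0.1 (two-sided), the smallest value that 3 against 3 arrays allow. Only 26 probes, or 0.104% of the 24992 tested, were called in this comparison.

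Without the array of knockdown clone 2 the PARP14 difference between treated clones was −2.62 (SE 0.27) and was called (limma, adjusted p = 0.00455), but the remaining treated knockdown and control arrays then lay on separate slides, so that slide and clone type cannot be told apart. Without that array 31.4% of all probes tested were called. Against the 3 control clones of its own slide, treated knockdown clone 2 differed by −3.50. The fit with slide as a block gives the same value, since that 1 array is the only treated knockdown array on the slide of the controls.

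**Figure D2:**
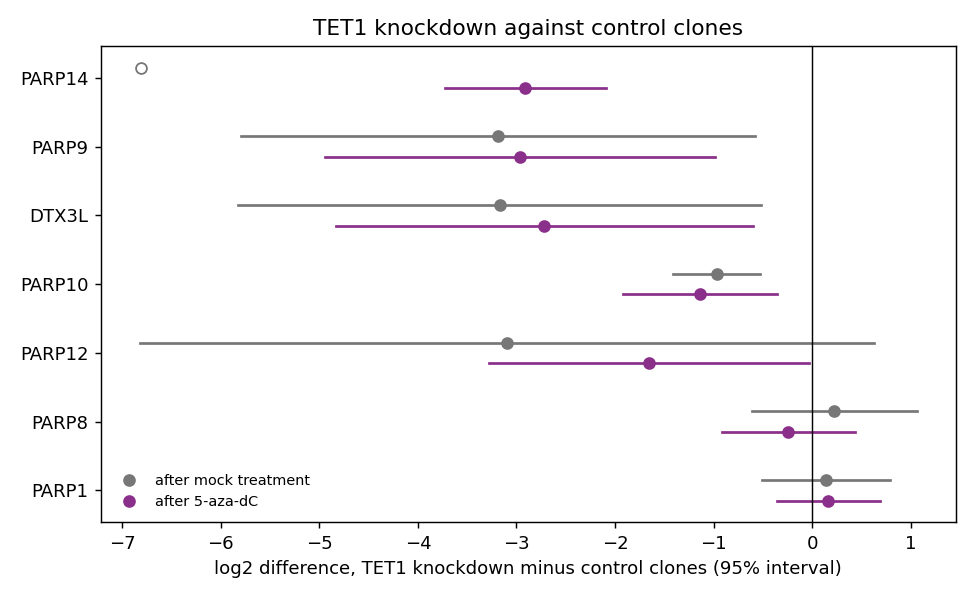
Log2 difference between TET1 knockdown and control clones for the 7 genes with a detected probe, after mock treatment (grey) and after 5-aza-dC (purple), with 95% intervals from the limma fits. The open point is the mock-treated difference of PARP14 (−6.81), for which no interval is given because the gene was picked on it. On the brightest probe of each gene, which is the one drawn, PARP8 and PARP1 lie near 0.

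From mock to treated arrays the PARP14 level was higher by 3.50, 2.71 and 4.32 on the log2 scale in knockdown clones 1, 2 and 3. As these differences start from background readings, the level was at least 2.50-fold higher after 5-aza-dC. With normexp the mean difference was 1.00 on the log2 scale, under that bound. In control clones the differences were −0.48, −0.72 and 0.03, so no control clone came near those of the knockdown clones. Knockdown clones 1 and 3 and control clone 3 had both arrays on 1 slide. These values are descriptive, since the low mock-treated level in knockdown clones is what the gene was chosen for.

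PARP9 and DTX3L, the pair transcribed away from each other from starts 38 bases apart, had lower levels in every knockdown clone than in any control clone, both before and after 5-aza-dC. PARP9 is a macrodomain protein with little activity of its own, and DTX3L is its ubiquitin ligase partner. For PARP9 the mock-treated control clones read −0.23, −0.15 and 0.02, and the knockdown clones −6.00, −1.62 and −2.28. After 5-aza-dC the control clones read −0.02, 0.25 and 0.25, and the knockdown clones −4.83, −1.36 and −2.22. Knockdown clone 1 was not well above background in either state, while clones 2 and 3 were. DTX3L followed the same order. Its mock-treated control clones read −0.57, −0.45 and 0.20 and its knockdown clones −6.18, −1.92 and −2.23. Its treated control clones read 0.40, 0.21 and 0.04 and its treated knockdown clones −4.67, −0.96 and −1.87.

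Neither gene passed the test between knockdown and control clones. The PARP9 difference was −3.18 (SE 1.09, adjusted p = 0.404) after mock treatment and −2.96 (SE 0.83, adjusted p = 0.191) after 5-aza-dC. For DTX3L it was −3.17 (SE 1.10, adjusted p = 0.413) and −2.72 (SE 0.89, adjusted p = 0.216). As clone 1 was at background, these fitted differences are not measured folds. A second PARP9 probe gave −2.41 and −1.66, again with no overlap between the groups. The change of neither gene with 5-aza-dC passed the test. The difference of PARP9 was 0.28 (95% interval −0.13 to 0.68) in control and 0.50 (−2.78 to 3.77) in knockdown clones, and that of DTX3L 0.49 (−0.11 to 1.10) and 0.94 (−2.42 to 4.31). The intervals in knockdown clones are wide enough to include sizeable changes in either direction.

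The number of genes with this order was read against the array as a whole. After mock treatment PARP14, PARP9, DTX3L and PARP10 had all knockdown arrays under all control arrays, 4 of the 7 genes with a detected probe, while 9.09% of all probes tested did. After 5-aza-dC it was again these 4 of 7, against 13.2% of all probes tested. PARP14 was chosen for this order and the others were added with results of these data known, so nothing is read from the counts themselves. None of the 7 was called by limma between treated clones, and none of the other 6 between mock-treated clones. At an unadjusted p under 0.05, 5 of the 7 were lower between treated clones (PARP14, PARP9, DTX3L, PARP10 and PARP12), as were 9.99% of all probes tested. Without treated knockdown clone 2 the same 5 were called, under the limits of slide and background share given above.

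PARP10, a mono-ADP-ribosyl transferase known to restrain cell growth, was the member that responded to 5-aza-dC in both kinds of clone. The mock-treated control clones read −0.68, −0.53 and −0.43, and the treated ones 1.76, 1.98 and 1.78. The mock-treated knockdown clones read −1.67, −1.53 and −1.35, and the treated ones 0.37, 1.41 and 0.35. Every treated array thus lay above every mock-treated array of its clone type. The level rose by 2.39 on the log2 scale in control clones (SE 0.16, limma, adjusted p = 0.00117), a 5.24-fold increase. It rose by 2.22 in knockdown clones (SE 0.33, adjusted p = 0.0238), a 4.67-fold increase. Of all probes tested, 5.21% were called in control clones, 3.84% as higher, and 2.05% were called in knockdown clones, 2.04% as higher. The split in control clones, 945 higher against 338 lower, moved to 886 against 1630 with the array median as the scale, which shifted the median of all probes from −0.02 to −0.23. PARP10 was the 1 member called among the 6 others tested in each comparison.

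The PARP10 increase was seen in each of the 6 clones. It was 2.45, 2.52 and 2.21 in control clones 1, 2 and 3, and 2.04, 2.93 and 1.70 in knockdown clones 1, 2 and 3. In the 3 clones with both arrays on 1 slide, control clone 3 and knockdown clones 1 and 3, the increases were 2.21, 2.04 and 1.70. The increase did not differ measurably between clone types, with an interaction of −0.17 (95% interval −1.01 to 0.68, limma, adjusted p = 1.00). Over all probes 0.0367% were called for the interaction, and no member was among them. The call was lost without control clone 1 or 2 (adjusted p = 0.0750 and 0.158) and without any 1 of the knockdown clones (adjusted p = 0.0971 to 0.855), while the increase stayed between 1.87 and 2.49.

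On its brightest probe PARP10 was also lower in knockdown than in control clones in both states, though by less than PARP14. The difference was −0.97 (SE 0.18, 95% interval −1.41 to −0.53, limma, adjusted p = 0.242) after mock treatment and −1.13 (SE 0.33, 95% interval −1.92 to −0.35, adjusted p = 0.195) after 5-aza-dC, with no overlap of the groups in either. A second PARP10 probe was well above background on 4 mock-treated arrays and on no treated array. It was at least 1.02-fold lower after 5-aza-dC in control and at least 1.31-fold lower in knockdown clones, opposite in direction to the first probe, and was too dim to be tested in these comparisons or between treated clones. Between clone types this probe also went the other way. Knockdown clones read higher by 0.33 after mock treatment (limma, adjusted p = 0.726), where the groups overlapped. After 5-aza-dC they read higher by 1.21 without overlap, all on arrays that did not detect the probe.

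PARP12, a zinc-finger mono-ADP-ribosyl transferase, had the widest spread of the 8 genes among mock-treated knockdown clones (SD 3.38, n = 3). The mock-treated control clones read −0.10, 0.45 and 0.63. The mock-treated knockdown clones read −5.96, 0.76 and −3.12, of which clone 1 was not well above background and clone 2 lay above all 3 control clones. After 5-aza-dC the control clones read 1.31, 1.49 and 1.16 and the knockdown clones −1.51, 1.29 and −0.80. Clone 2 now lay within the control range, so the groups overlapped in both states. The difference between knockdown and control clones was −3.10 (SE 1.55, adjusted p = 0.499) after mock treatment and −1.66 (SE 0.68, adjusted p = 0.257) after 5-aza-dC.

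The PARP12 level was higher after 5-aza-dC in all 6 clones, without passing the test in either clone type. In control clones the increments were 1.41, 1.04 and 0.53, with a mean of 0.99 (SE 0.24, limma, adjusted p = 0.0694). In knockdown clones they were 4.45, 0.53 and 2.32, with a mean of 2.43 (SE 1.68, adjusted p = 0.702). Knockdown clone 1 started from a background reading, so its increment and this mean are not measured folds. The interaction was 1.44 (95% interval −2.74 to 5.62), too wide to place its sign.

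PARP15, PARP8 and PARP1 completed the set. PARP15, which lies between DTX3L and PARP14 on 3q21, was not well above background on any of the 12 arrays and was not tested, so its readings of −6.49 to −5.51 give only an upper bound. PARP8, a mono-ADP-ribosyl transferase with 3 probes, read 1.03 to 2.28 over the 12 arrays on its brightest probe. Its differences between knockdown and control clones were 0.23 (95% interval −0.61 to 1.06) after mock treatment and −0.24 (−0.91 to 0.43) after 5-aza-dC. PARP1, the major poly-ADP-ribose polymerase of the DNA damage response, read 4.16 to 5.08 on its brightest probe. Its differences were 0.14 (−0.51 to 0.79) and 0.17 (−0.35 to 0.68). All 4 intervals included 0.

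The other genes of 3q21 were examined for differences between knockdown and control clones. Outside the 4 members, 12 genes on the array had a probe within 500 kb of the outermost probes of these members. The farthest lay 598.2 kb from the PARP14 probe. None of the 9 tested after mock treatment and none of the 11 tested after 5-aza-dC was called. Their differences ran from −1.54 (CD86) to 0.64 (CCDC58) after mock treatment and from −1.24 (CD86) to 1.49 (SEMA5B) after 5-aza-dC. HSPBAP1, whose probe lies 21.8 kb from that of PARP14, differed by 0.03 (adjusted p = 0.967) and −0.13 (adjusted p = 0.754). KPNA1, the nearest measured gene beyond PARP9, differed by −0.42 and −0.53. CSTA, a cysteine protease inhibitor, was the neighbour called for 5-aza-dC. In knockdown clones it was not well above background after mock treatment and well above it on all 3 treated arrays, at least 2.11-fold higher (limma, adjusted p = 0.00462). It met the filter of 3 detected arrays through the treated group alone, and with no filter the adjusted p was 0.00563. Under alternative processing its smallest fitted difference was 0.78 on the log2 scale, under that bound. With treated knockdown clone 2 left out, 1 of 11 neighbours tested was called higher and 2 lower between treated clones. In that fit 31.4% of all probes were called and slide could not be told apart from clone type.

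**Figure D3:**
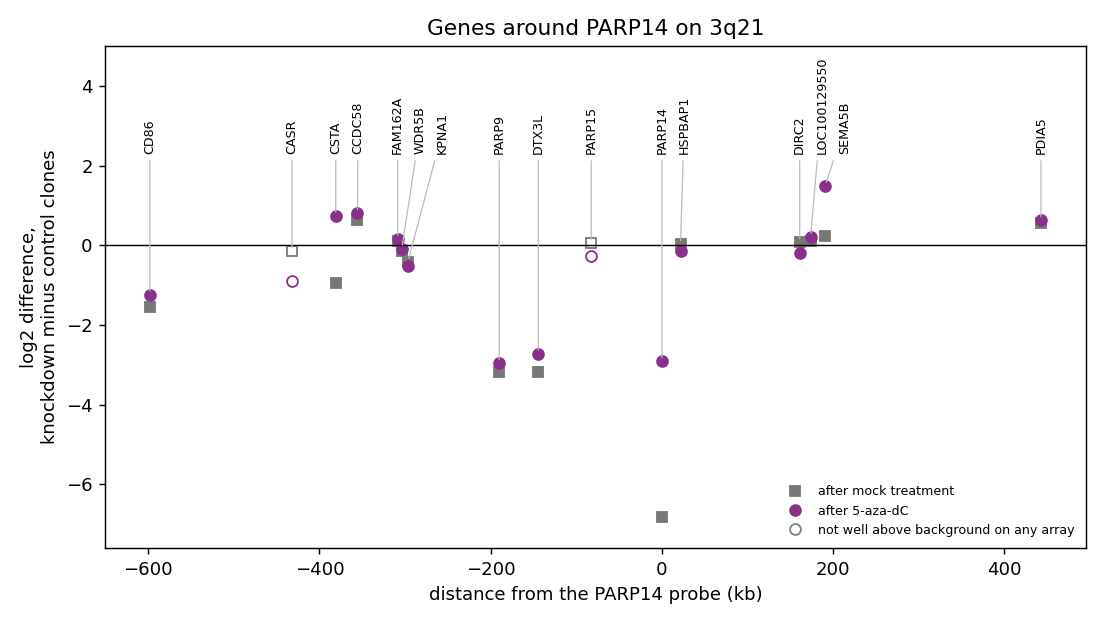
Log2 difference between TET1 knockdown and control clones for PARP14 and the other genes of 3q21 on the array, by distance of each gene's probe from the PARP14 probe in kb. Squares are after mock treatment, circles after 5-aza-dC, and open symbols were not well above background on any array. PARP14, PARP9 and DTX3L lie at −2.72 or below in both states, and the other genes between −1.54 and 1.49.

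The other genes of the PARP family, and those that remove or read ADP-ribose, showed few calls. Of 10 further genes of the PARP family, all tested, 1 was called. ZC3HAV1, the zinc-finger antiviral protein, was higher after 5-aza-dC in control clones by 1.12 (limma, adjusted p = 0.0469, but 0.0566 with the clone as a block and 0.109 with no filter on dim probes). Of 7 enzymes that remove ADP-ribose, MACROD2 was lower after 5-aza-dC in control clones by a difference of −1.34 (adjusted p = 0.0345, but 0.0512 with that block and 0.0755 with no filter). ADPRH, an ADP-ribosylarginine hydrolase, was called as higher after 5-aza-dC in knockdown clones, at least 1.17-fold from background (adjusted p = 0.0315). It met the filter of 3 detected arrays through the treated group alone, and the adjusted p was 0.0358 with no filter. With all arrays kept, no member of the 10 ADP-ribose readers and DTX3L relatives (6 tested) or of the 4 repair partners of PARP1 was called in any of the 5 comparisons, in which 0.0367% to 5.21% of all probes were called. Leaving out treated knockdown clone 2, 31.4% of all probes were called between treated clones. Of the 10 PARP family genes, 2 were then called higher and 1 lower. So were 1 of 7 removal enzymes (higher), 1 of 6 readers and relatives (lower), and 1 higher and 1 lower of 4 repair partners.

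The interferon response list of 30 genes, of which 19 to 22 were tested in each comparison, was examined because PARP14, PARP9, DTX3L, PARP10 and PARP12 belong to the same response. Between treated clones 15 of 22 had a negative difference and 7 a positive one, with a median of −0.46 against −0.01 over all probes, and 1 was called. After mock treatment 14 of 19 had a negative difference, with a median of −0.34 against 0.04, and 1 was called. Of all probes tested, 0.104% were called between treated and 0.137% between mock-treated clones. OAS3, a double-stranded RNA sensor, was the called interferon gene in both comparisons. Its mock-treated control clones read −2.29, −1.11 and −1.50 and its knockdown clones −4.63, −4.54 and −4.40, none of the latter well above background, which is at least 4.90-fold lower (limma, adjusted p = 0.0466, 0.185 with slide as a block). It met the filter there through the control clones alone. Under alternative processing its smallest fitted difference there was −1.10 on the log2 scale, under that bound in size. After 5-aza-dC the control clones read −1.59, −1.12 and −0.71 and the knockdown clones −3.87, −4.66 and −4.09, a difference of −3.06 (SE 0.32, adjusted p = 0.0443). With no filter on dim probes neither OAS3 call held (adjusted p = 0.0828 after mock treatment and 0.0889 after 5-aza-dC). In knockdown clones the OAS3 readings after 5-aza-dC overlapped those after mock treatment, through clone 2, whereas those of PARP14 did not. Treated knockdown clones 1 and 3 were well above background for OAS3, and clone 2 was not.

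IRF9, the DNA-binding subunit of a complex that acts on ISRE sites, was not called between knockdown and control clones. It read −0.26, −0.18 and 0.19 in mock-treated control clones and −0.77, −0.76 and −0.66 in knockdown clones. Its groups did not overlap, but the difference of −0.64 was not called (adjusted p = 0.375), nor was that of −0.90 between treated clones (adjusted p = 0.226). Without treated knockdown clone 2, 8 of the 22 interferon genes were called lower and 2 higher between treated clones, in a comparison in which 31.4% of all probes were called and slide could not be told apart from clone type.

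With 5-aza-dC, 4 of 22 interferon genes were called higher and 1 lower in control clones, and 2 of 19 were called higher in knockdown clones. Of all probes tested, 5.21% were called in control clones, 3.84% as higher, and 2.04% were called as higher in knockdown clones. The difference, called or not, was positive in 19 of 22 in control clones, with a median of 0.50 against −0.02 over all probes. It was positive in 16 of 19 in knockdown clones, with a median of 0.35 against −0.09. IRF7, the master regulator of type I interferon genes, went from below background on all mock-treated arrays to well above it on all treated arrays. It was at least 5.37-fold higher in control clones (limma, adjusted p = 0.0155, 0.105 with slide as a block) and at least 7.29-fold higher in knockdown clones (adjusted p = 0.0104). BST2, the virus-tethering protein tetherin, was called in both (adjusted p = 0.00887 and 0.0317, the latter 0.0813 with slide as a block) and was at least 4.72-fold higher in knockdown clones. IRF7 in both clone types and BST2 in knockdown clones met the filter through the treated group alone. With no filter the adjusted p was 0.0247 and 0.00974 for IRF7 and 0.0303 for BST2. IFIT2 rose by 1.48 in control clones (adjusted p = 0.0262), and IFIH1, the RNA sensor MDA5, fell by 1.05 there (adjusted p = 0.0178). With slide as a block neither call held (adjusted p = 0.141 and 0.0774), nor with no filter (0.0574 and 0.0648), and a block for the clone also ended that of IFIT2 (adjusted p = 0.0578). In control clones all 3 treated arrays but only 1 mock-treated array were on the second slide.

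STAT6, the transcription factor for which PARP14 is a known co-activator, had the largest difference with 5-aza-dC among the 9 genes of interleukin-4 signalling, in both clone types. It was not well above background on any of the 6 mock-treated arrays, where it read −6.41 to −4.26. After 5-aza-dC it read 1.55, 0.06 and 0.25 in control clones and −1.78, −0.24 and −1.29 in knockdown clones. STAT6 was at least 25.7-fold higher after treatment in control clones (limma, adjusted p = 0.00511, 0.0527 with slide as a block) and at least 7.07-fold higher in knockdown clones (adjusted p = 0.0018). It met the filter through the treated groups alone, and with no filter the adjusted p was 0.00817 and 0.00192. Under alternative processing the smallest fitted differences of STAT6 were 2.86 and 1.53 on the log2 scale, under both bounds. All 3 treated knockdown clones lay under all 3 treated control clones, by a difference of −1.72 that was not called (SE 0.53, adjusted p = 0.208). Thus in mock-treated control clones PARP14 was well above background while STAT6 was not, and both were detected in the treated clones of either kind. With all arrays kept, no other gene of this list was called in any comparison. All 8 tested had a negative difference between treated clones, with a median of −0.45 against −0.01 over all probes, and IL4R, the receptor chain, differed by −2.25 (SE 0.62, adjusted p = 0.191). With treated knockdown clone 2 left out, 2 of 8 genes of the list were called lower and 0 higher, where 31.4% of all probes were called.

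**Figure D4:**
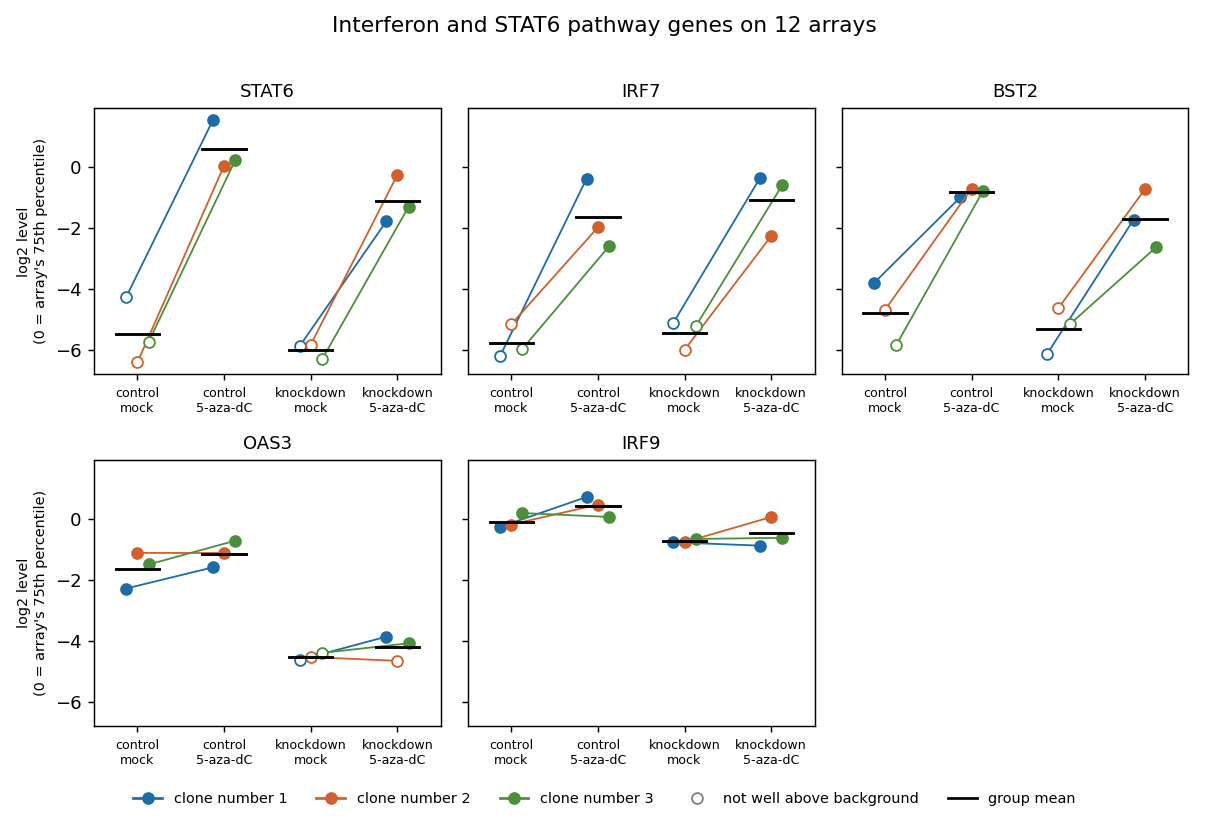
Log2 level, relative to the array's 75th percentile, of STAT6, of the interferon genes IRF7, BST2 and OAS3, and of the ISRE-binding subunit IRF9 on the 12 arrays. Points are arrays, lines join both arrays of a clone, open points were not well above background and black bars are means. STAT6 and IRF7 were open on every mock-treated array and filled on every treated one. OAS3 read −4.66 to −3.87 in treated knockdown clones, where 2 of 3 points are filled.

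The 4 genes whose levels over the 12 arrays were most like those of PARP14, of 19418 genes compared by Pearson correlation, were PMAIP1 (0.968), ZNF304 (0.959), HTATIP2 (0.959) and XLOC_001718 (0.944). The points share arrays, slides and clones, and the measure is a description of these arrays. They include the mock-treated arrays on which PARP14 was picked, so genes with a similar drop in knockdown clones tend to rank high. PMAIP1 encodes the pro-apoptotic protein NOXA. Its mock-treated control clones averaged −0.75 and its mock-treated knockdown clones −6.00. Its treated knockdown clones averaged −4.36, all above the mock-treated knockdown readings but none well above background. HTATIP2, known as a tumor suppressor, became detectable in all 3 treated knockdown clones, as PARP14 did. It read 2.75, 2.80 and 2.76 in mock-treated control clones, −4.77, −6.00 and −4.71 in mock-treated knockdown clones, and 1.16, 0.42 and 0.56 in treated knockdown clones. ZNF304 had a smaller step, from −0.85 to −2.31 between the means of mock-treated control and knockdown clones.

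Over the 6 control arrays alone the correlation with PARP14 was 0.50 for PMAIP1, −0.65 for ZNF304, −0.53 for HTATIP2 and 0.40 for XLOC_001718. Without treated knockdown clone 2 the 4 correlations over the remaining arrays were 0.960 to 0.970. The neighbours PARP9 (0.710) and DTX3L (0.706) ranked 442 and 472. In both of them knockdown clone 1 stood apart from clones 2 and 3, and in PARP14 it did not.

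**Figure D5:**
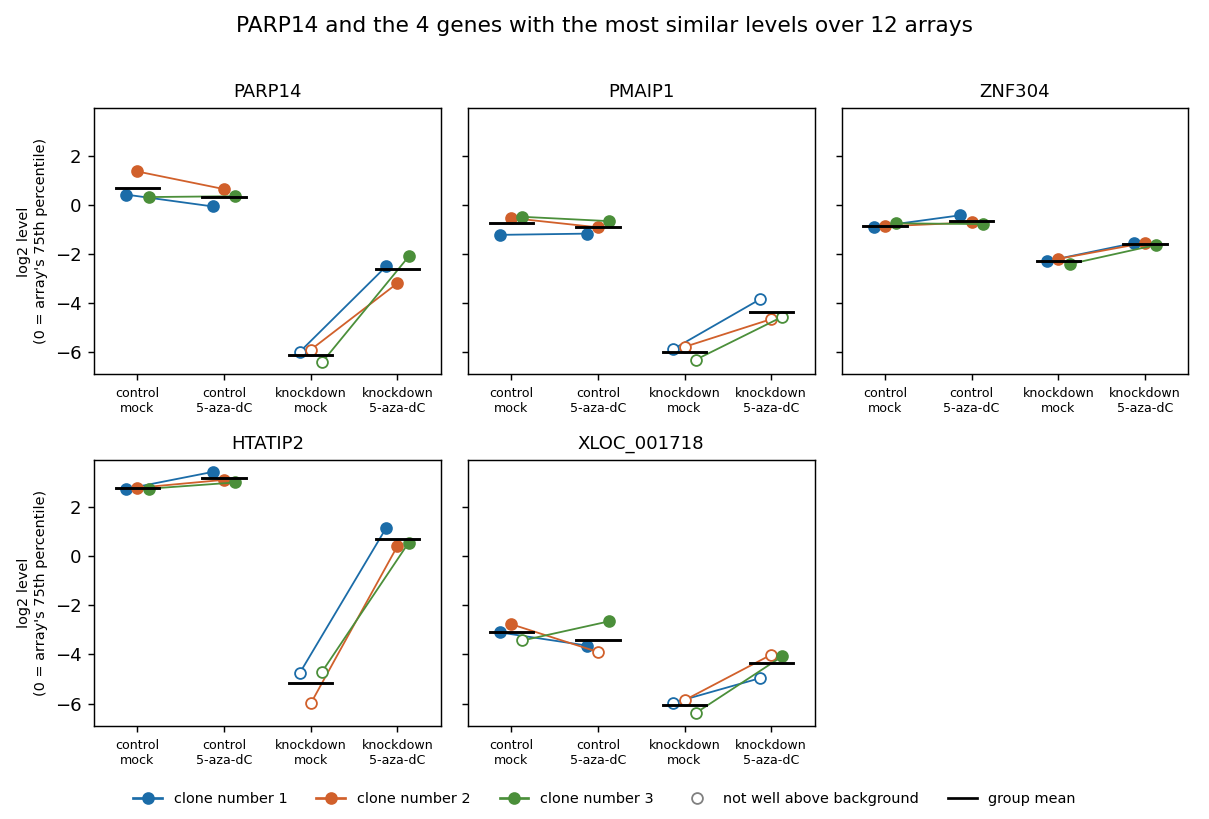
Log2 level, relative to the array's 75th percentile, of PARP14 and of the 4 genes most like it over the 12 arrays. Points are arrays, lines join both arrays of a clone, open points were not well above background and black bars are means of 3 arrays. PARP14 and HTATIP2 are open in mock-treated and filled in treated knockdown clones, while PMAIP1 is open in both.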

How the data were processed

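Expression of 6 Colo320DM clones, in 2 states each, was measured on 12 one-colour Agilent arrays. The intensity of each spot is deposited as scanner text. It was extracted by the authors with Agilent Feature Extraction 10.7, with the background subtracted, and the headers name no scaling across arrays. Later steps of the study used GeneSpring, whose normalization is not given in the sources used here. A deposited table of the whole series gives these intensity values with 3 digits (largest difference 0.497%).

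After removal of control and outlier spots, replicate spots were averaged and log2 signals were centred on each array's 75th percentile, a signal of 241 to 359. The 62976 spots of an array covered 50599 probes, of which 45.7% to 52.9% were well above background. The number of arrays limits the precision. Groups came from the labels. With 1 array for each clone and state, p-values measure the spread between clones. The members and gene lists were chosen with earlier results of these data known. Named genes were the 8 members by their brightest probe, TET1, up to 3 called genes per list and comparison with the largest change, tested 3q21 neighbours, and the 5 genes most correlated with PARP14, of which 1 is not reported here. IRF9 and IL4R were named after their values were seen.

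Comparisons used limma 3.58.1, with two-sided moderated tests in R 4.3.3 and the package data.table (version 1.17.8). A fit held the arrays of 2 groups, or all 12 for the interaction. It tested probes well above background on at least 3 of its arrays, and a Benjamini-Hochberg adjusted p under 0.05 over all of these was a call. If no array of the dimmer group detected a probe, the fold is a bound: the dimmer group's mean was then taken over the higher of 2 values per array, the reading itself and the lowest detected signal of that array. Such a bound holds for the main processing only. It is approximate, since a probe that was not detected can read above the lowest detected signal. The fit was tested on simulated data. Titles tie mock and treated arrays of a clone, and their deviations from the group means correlated at 0.217 to 0.366 in control and 0.429 to 0.616 in knockdown clones. Alternatives covered normalization, background correction, filters, slide, clone blocks and single clones. Alternatives for list genes and those without treated knockdown clone 2 were added after the data were seen. Probe positions are those of the files (hg19). Promoter windows are RefSeq's (GRCh38.p14).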

Additional observations from a re-analysis of the deposited data

How the results depend on the processing

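Over the 523 alternative values of the tested members, 482 kept direction and side of the threshold, 10 gained a call, 9 lost one and 22 changed sign, the last all with differences that were not called. Between treated clones 26 probes were called, from 0 with probes well above background on every array to 7725 without treated knockdown clone 2. For 5-aza-dC, 1283 probes were called in control clones (0 to 5346) and 521 in knockdown clones (0 to 818). For the interaction 10 were called (1 to 14) and between mock-treated clones 34 (0 to 93). Called genes of the lists and neighbours kept their direction in all 196 alternative values and lost the call in 82 of them. Fitted differences near background shrank with normexp, where that of PARP14 was −1.91 between treated clones, −3.27 between mock-treated clones, 1.00 for 5-aza-dC in knockdown clones and 1.36 for the interaction. The causes were not tested.

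Between treated clones PARP14 alone was called, with 1 member called, with slide as a block (−3.50) and in a fit of all 12 arrays (−2.91). The first rests on 1 treated knockdown array, and the second takes part of its spread from the mock-treated arrays on which PARP14 was picked. Leaving out single clones gave PARP14 differences of −3.16 to −2.62 and 0 to 5 members called, the 5 without knockdown clone 2. For 5-aza-dC in control clones 2 members were called with normexp (PARP10 and PARP12), 0 with the second brightest probes, and 0 to 3 without single clones. The 3 came without control clone 3, when 5346 of 23403 probes were called. In knockdown clones 0 were called with normexp, with probes well above background on every array, with the methods' t-test, with the second brightest probes and without any single clone. No member was called without single clones for the interaction or between mock-treated clones (0 to 0).

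With the replicate block, in which the clone number pairs mock and treated arrays, PARP10 was the 1 member called for 5-aza-dC in each clone type, 0 were called for the interaction, and the block changed no other member's call. With slide as a second block 0 were called in control clones, where PARP10 kept an increase of 2.21, and PARP14 (0.034), DTX3L (−0.16) and PARP8 (−0.17) changed sign. Between knockdown and control clones the number is only a name, and the replicate block left 0 members called in both states, with 7 probes called between treated and 20 between mock-treated clones.

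Sign changes concerned differences that were not called. The PARP10 difference between mock-treated clones, which changed sign with its second brightest probe, was −0.97 on its brightest one. PARP8 turned to 0.075 between treated clones and −0.49 for 5-aza-dC in control clones with slide as a block. With its second brightest probe it was 0.070 between treated clones, −0.40 for 5-aza-dC in control clones, 0.11 for the interaction and −0.038 between mock-treated clones. PARP9 for 5-aza-dC in knockdown clones was −0.22 with slide as a block. For the interaction PARP9 (−0.13) and DTX3L (−0.15) turned with normexp, PARP1 (−0.023) with the array median as the scale, and PARP10 with slide as a block (0.04), with the replicate block and slide (0.058) and with its second brightest probe (0.88), which was 0.33 between mock-treated clones. Without single clones the interaction ranged from −0.12 to 0.45 for PARP9, from −0.52 to 0.10 for PARP10 and from −0.13 to 0.12 for PARP1, and the difference between mock-treated clones from −0.016 to 0.61 for PARP8 and from −0.079 to 0.30 for PARP1.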
